A study of Mus musculus with 87 samples.

Results

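Capture sequencing of ETn insertions in mice with and without the Chr4-cl KRAB-ZFP gene cluster showed 3 sites, in Cyfip2, in Sntb1 and next to Snx10, at which several siblings held a strong cluster of reads while their parents held none. These 3 sites of 5018 ETn loci in the whole data set are described here. They were chosen by their reads, as sites called in several siblings but in neither parent of the family in which they first appeared. A call means 10 RPM or more (RPM, reads of the site per 1e6 reads of the library). The reads of the carriers and their absence from these parents are therefore given as descriptions, with no test. In all, 87 libraries were examined. Of these, 76 were main libraries, 1 for each of 74 mice and 2 ES cell lines. The 11 further libraries were of the same animals, from other organs, repeated preparations or adult tail. Some of the mice belonged to a Chr2-cl mating, with KO, KO/WT and WT animals for a different KRAB-ZFP gene cluster. The paper states that Chr2-cl mice were kept on a mixed strain background. A mixed-strain F1 family was also sampled. It held the Chr4-cl KO/WT parents T3913 and T3921, their KO and WT offspring, and KO animals of a further generation. All libraries of the Chr2-cl mating and of this F1 family were main libraries. The B6 libraries used below came from Chr4-cl KO and WT mice and from the ES cell lines, both Chr4-cl KO/WT.

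ETn (early transposon) elements are endogenous retrovirus-like elements of the mouse that are copied through RNA and inserted at a new place in the genome, where the copy is flanked by 2 long terminal repeats (LTRs). ETn elements in the strict sense lack the genes for their own proteins and depend on related ETnERV elements, which can hold such genes, for reverse transcription and integration. Reads were counted here at both kinds, so that the kind of element inserted is not known from the counts. KRAB-ZFPs are DNA-binding repressors, many of which recognise such elements and recruit KAP1 and repressive chromatin to them. An insertion that arises in the germ line of a parent can be passed on to several offspring. One that arises after fertilisation in cells outside the germ line is limited to part of the cells of 1 animal.

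The carriers came from 2 related families of the mixed strain B6x129X1/SvJ (F2). In mating 1 the mother BA27227 (Chr4-cl KO/WT) and the father BA27232 (Chr4-cl KO), both sampled from ear, had 16 offspring, of which 8 were labelled Chr4-cl KO and 8 KO/WT. C7416, a KO/WT daughter of mating 1, was then mated with C7249, a KO/WT male from another pair (mating 2), and this mating 3 gave 8 sampled offspring, 4 Chr4-cl KO and 4 Chr4-cl WT. All offspring were sampled from tail except 3 KO animals of mating 1 sampled from ear, and ages were not given in the labels. Every Chr4-cl KO allele went back to heterozygous B6 ES cell clones injected into blastocysts. The mice were then crossed to the second strain of that name, so that the KO allele lay on a B6 chromosome segment. The 3 ear libraries C6923, C6924 and C6926 were labelled male, but chromosome Y took 0.00516% to 0.00677% of their reads, against 0.00774% to 0.0117% in the 11 siblings labelled female and 0.156% to 0.158% in the other 2 labelled male. None of these 3 libraries held a read at any of the insertions, and the comparisons between siblings of mating 1 are also given without them.

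The assay enriched DNA fragments with RNA probes against the outer ends of ETn LTRs, and a read was counted at a site when it mapped there uniquely and its mate lay in an ETn sequence. Libraries held 525419 to 1046650 such reads (median 736479), so that 10 RPM corresponded to between 5.25 and 10.5 reads. The probes show what was enriched. Of 1274 ETn probes, 673 began with TG and 583 ended with CA, the dinucleotides at the outer ends of retroviral LTRs. The most frequent probe of each kind, shared by 52 and 50 elements, is shown with this dinucleotide in capitals.
ETn probe at the start of the LTR: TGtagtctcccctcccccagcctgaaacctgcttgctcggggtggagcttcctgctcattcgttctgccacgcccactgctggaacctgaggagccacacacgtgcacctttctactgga
ETn probe at the end of the LTR: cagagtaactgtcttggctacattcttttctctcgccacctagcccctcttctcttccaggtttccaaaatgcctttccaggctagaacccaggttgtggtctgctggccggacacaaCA

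The reference genome around the sites held no recognisable probe sequence. In the mm9 sequence of the Cyfip2 and Sntb1 sites with 5000 bp on either side, 0 stretches of 20 bases were shared with any of the 1274 probes on either strand. The Snx10 site shared 2 such stretches, both of which consisted of 1 base at 18 or more of the 20 positions. At the nearest loci that were called in every main library, used here for comparison, 283 (chromosome 6), 201 (chromosome 11) and 292 (chromosome 15) stretches were found.

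The exact insertion point is not part of the read clusters, which cover both flanks of an insertion, so the midpoint of a cluster gives its approximate place. The midpoints agreed closely between carriers. They spanned 5 bp in the 2 carriers of the Sntb1 insertion, 91 bp in the 3 carriers of the Snx10 insertion and 119 bp in the 7 libraries with the Cyfip2 insertion. The following mm9 sequences of 300 bases, given on the plus strand, show these target sites, and capitals mark the stretch in which the midpoints lay.
Cyfip2, chr11:46034680-46034979: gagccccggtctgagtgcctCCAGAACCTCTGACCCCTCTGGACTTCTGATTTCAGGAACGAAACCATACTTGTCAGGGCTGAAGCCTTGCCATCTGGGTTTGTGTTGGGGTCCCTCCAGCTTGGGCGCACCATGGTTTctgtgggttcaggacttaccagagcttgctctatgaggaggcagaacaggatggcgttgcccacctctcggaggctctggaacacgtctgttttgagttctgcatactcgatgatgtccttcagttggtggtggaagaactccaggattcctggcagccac
Sntb1, chr15:55654551-55654850: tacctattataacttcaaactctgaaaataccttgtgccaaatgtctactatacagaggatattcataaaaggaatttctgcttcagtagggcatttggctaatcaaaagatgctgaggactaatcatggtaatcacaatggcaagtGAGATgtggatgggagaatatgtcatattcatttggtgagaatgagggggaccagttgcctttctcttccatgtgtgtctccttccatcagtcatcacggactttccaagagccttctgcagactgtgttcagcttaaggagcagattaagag
Snx10, chr6:51550228-51550527: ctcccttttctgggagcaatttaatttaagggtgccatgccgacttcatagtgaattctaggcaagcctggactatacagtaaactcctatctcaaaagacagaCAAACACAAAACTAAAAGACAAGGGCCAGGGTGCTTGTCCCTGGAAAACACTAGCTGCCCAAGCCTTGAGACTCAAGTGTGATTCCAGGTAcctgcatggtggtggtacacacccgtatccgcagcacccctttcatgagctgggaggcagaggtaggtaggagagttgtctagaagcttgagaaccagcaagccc

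Cyfip2 encodes a subunit of the WAVE complex that controls actin polymerisation and binds the fragile X protein FMRP. The reads in carriers covered chr11:46034231-46035369, inside this gene, which runs on the minus strand from 46125852 to 46007357. The clusters spanned a coding exon of 131 bp (46034838 to 46034968, exon 26 of 31 in transcript Cyfip2-001), which takes up bases 159 to 289 of the sequence above. All 7 cluster midpoints lay outside this exon, 20 to 138 bp from its border, in the intron of 12975 bp between exons 26 and 27. At this distance the midpoints do not decide between intron and exon.

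Sntb1 encodes beta-1-syntrophin, an adaptor protein of the dystrophin complex at the cell membrane. Its insertion, at chr15:55654317-55655079, lay in the first intron of this minus-strand gene (55470398 to 55738504), an intron of 113773 bp. The nearest exon was exon 2, 30893 bp away. Snx10 encodes a sorting nexin that acts in endosomal trafficking and is needed for bone resorption by osteoclasts. The insertion assigned to it, at chr6:51549777-51550984, lay between genes, 9099 bp beyond the 3' end of Snx10 (plus strand, 51473900 to 51540678) and 258.2 kb from Skap2, the next protein-coding gene on the other side. The midpoints of 23.5% of all 5018 ETn loci lay in a protein-coding gene.

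**Figure D1:**
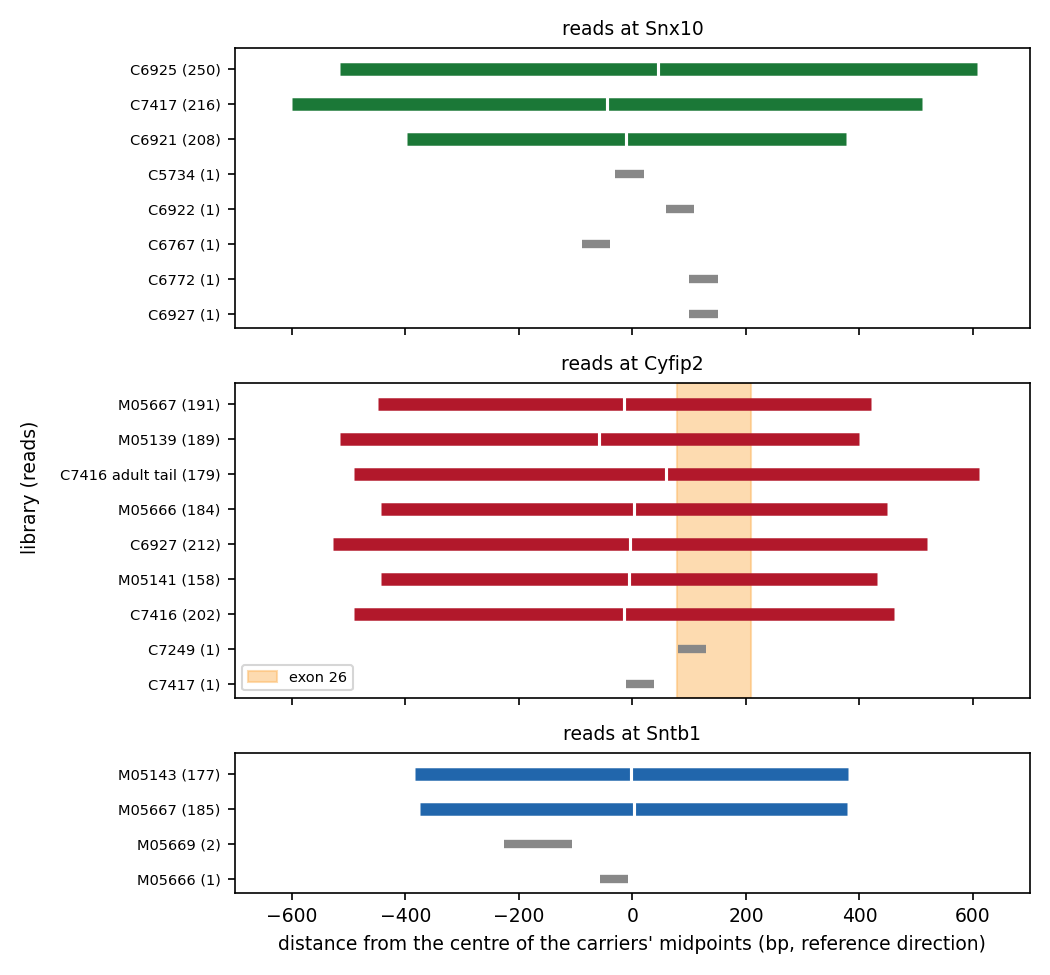
Extent of the read clusters at the 3 sites in every library with a read, as distance in bp from the centre of the carriers' midpoints, with read numbers in brackets. Coloured bars are carriers with the midpoint in white, grey bars are libraries with 1 or 2 reads, and the shaded band is exon 26 of Cyfip2. Carriers' clusters are centred within 119 bp of each other, while the grey bars are no longer than 121 bp.

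The clusters were about as wide as those of inherited non-reference insertions. Carriers' clusters were 774 to 1124 bp wide at Snx10, 870 to 1102 bp at Cyfip2 and 753 to 763 bp at Sntb1. At ETn loci that were inherited from 1 parent and not called in any of 16 B6 libraries, the median width was 909 bp in mating 1 (quartiles 720.5 and 1123.5) and 853 bp in mating 3 (quartiles 715.5 and 984).

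The Snx10 insertion was carried by 3 of the 16 offspring of mating 1 and by no other animal. C6925 (KO/WT) held 250 reads or 289 RPM, C7417 (KO) 216 reads or 266.6 RPM and C6921 (KO/WT) 208 reads or 263.1 RPM. All 3 carriers were labelled female, as were 11 of the 16 siblings. The mean was 272.9 ± 14 RPM (SD, n = 3), and all other libraries lay at or below 1.43 RPM, so that carriers and non-carriers did not come close to overlapping. Both parents had 0 reads, which allows at most 4.29 RPM in BA27227 and 4.31 RPM in BA27232, that is 1.57% and 1.58% of the carriers' mean.

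The Cyfip2 insertion was seen in 2 generations; no offspring of a carrier of the other insertions was sampled. In mating 1 it was carried by C6927, a KO/WT male with 212 reads or 261.6 RPM, and by C7416, a KO/WT female with 202 reads or 244.2 RPM. The parents BA27227 and BA27232 had 0 reads, which allows at most 1.59% and 1.6% of the mean of all carriers. A second library of C7416, from adult tail, held 179 reads or 285.9 RPM (exact 95% Poisson interval 245.6 to 331), which overlapped the interval of the first library (211.7 to 280.4). These intervals and limits cover Poisson counting error only. Reads were counted after duplicates had been removed, and whether such counts follow a Poisson distribution was not tested.

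In mating 3 the Cyfip2 insertion was found in 4 of the 8 offspring of C7416. The WT animals M05667, M05139 and M05141 held 191, 189 and 158 reads, or 292.8, 291.9 and 256.5 RPM. The KO animal M05666 held 184 reads or 268.3 RPM. The other 4 offspring, M05669, M05137, M05143 and M05668, had 0 reads, and their father C7249 had 1 read (1.57 RPM). The mean over the 6 carriers of both families was 269.2 ± 19.6 RPM (SD, n = 6), with 252.9 ± 12.3 RPM (n = 2) in mating 1 and 277.4 ± 18 RPM (n = 4) in mating 3. A heterozygous mother passes an insertion on to 50% of her offspring on average. The observed share of 50% (exact 95% Clopper-Pearson interval 15.7% to 84.3%) gave p = 1 in an exact two-sided binomial test against this value, and the smallest p that 8 offspring allow is 0.00781.

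The Sntb1 insertion appeared first in mating 3. It was carried by the KO male M05143 with 177 reads or 291.5 RPM and by the WT male M05667 with 185 reads or 283.6 RPM, a mean of 287.6 ± 5.55 RPM (SD, n = 2). M05667 therefore carried both the inherited Cyfip2 insertion and the Sntb1 insertion, the only 1 of the 10 carrier animals with 2 of the insertions. Neither parent had a read: the limit was 3.63 RPM in the first and 4.79 RPM in the adult tail library of C7416, and 4.72 RPM in C7249, or 1.26%, 1.67% and 1.64% of the carriers' mean. Both tail samples of the mother, taken at different ages, thus lay at least 60-fold below her carrier offspring.

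**Figure D2:**
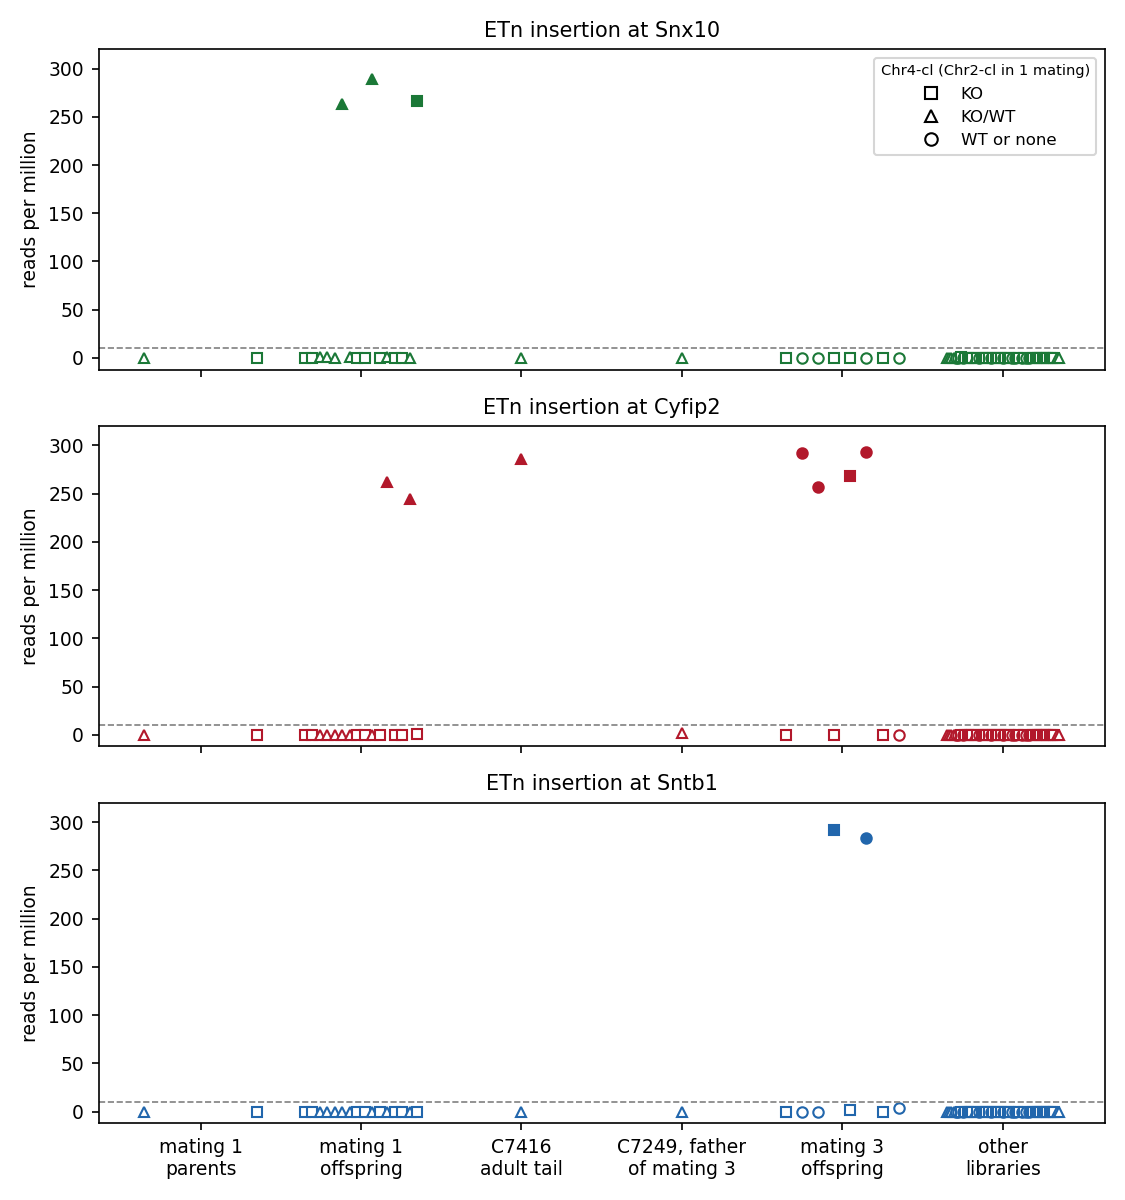
RPM at each insertion in the 76 main libraries and the adult tail library of C7416, by family. Filled symbols mark 10 RPM (dashed line) or more, and the symbol shape gives the genotype (Chr2-cl in the Chr2-cl mating, Chr4-cl elsewhere). Carriers lie between 244.2 and 292.8 RPM and all others at or below 3.45 RPM.

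The level varied little among carriers of the same insertion. The coefficient of variation over carriers was 5.14% at Snx10, 7.27% at Cyfip2 and 1.93% at Sntb1. Poisson counting error alone, at the carriers' mean read numbers, would give 6.67%, 7.27% and 7.43%. For 42 inherited loci with a mean between 200 and 350 RPM in their carriers (called here at 50 RPM), the median coefficient of variation was 5.65% (quartiles 3.98% and 6.56%).

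An animal that inherits an ETn locus held by 1 parent only is heterozygous for it, which gives a yardstick inside each library. Loci of the autosomes at 100 RPM or more in 1 parent and under 10 RPM in the other were taken for this purpose, 53 in mating 1 and 70 in mating 3. In mating 1, C7417 held Snx10 at 266.6 RPM against a median of 156.8 RPM over 32 such loci. The ratio of the Snx10 insertion to this median was 1.7 in C7417, 1.36 in C6921 and 1.58 in C6925, a mean of 1.54 ± 0.175 (SD, n = 3). At Cyfip2 the ratio ran from 1.25 in C7416 to 1.43 in M05139, with a mean of 1.36 ± 0.0782 (n = 6). At Sntb1 it was 1.31 in M05667 and 1.42 in M05143, a mean of 1.36 ± 0.0735 (n = 2). Counting an inherited locus only at 50 RPM or more, a setting chosen after seeing the data because some calls in mating 1 lay near the threshold, gave means of 1.46, 1.35 and 1.36 for Snx10, Cyfip2 and Sntb1.

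With 200 RPM or more in the parent the mean ratios were lower, at 1.11, 1.01 and 1.1 for Snx10, Cyfip2 and Sntb1. Joining loci within 10000 bp, so that both flanks of an element counted as 1 locus, gave 1.43, 1.09 and 1.16. Other definitions did not lower them in this way. The means were 1.53, 1.45 and 1.44 with no read in the other parent. They were 1.71, 1.36 and 1.45 with only loci not called in a B6 library. Here the Cyfip2 mean includes C7416, where the ratio of 0.789 rested on 1 such locus. The other Cyfip2 carriers, with 8 to 20 such loci, had ratios of 1.39 to 1.55. The place of the insertions among the inherited heterozygous loci thus depended on which loci were taken. With all loci at 100 RPM or more in the parent, the insertions lay inside their range. Between 63% and 87.5% of these loci in the same library were lower. Of those not called in a B6 library, all 9 in C7417 and all 8 in C6925 lay below the Snx10 insertion. The only 1 in C7416 lay above the Cyfip2 insertion. In each other pair of insertion and carrier, such loci lay both above and below. Against the 2028 autosomal loci called in every main library, whose medians in the carriers' libraries were 446.2 to 462.7 RPM, the insertions reached a ratio of 0.604 ± 0.0358 (mean ± SD over 11 values in 10 animals). In the adult tail of C7416 the ratio of the Cyfip2 insertion to inherited loci was 1.44 and to the loci of every library 0.631.

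**Figure D3:**
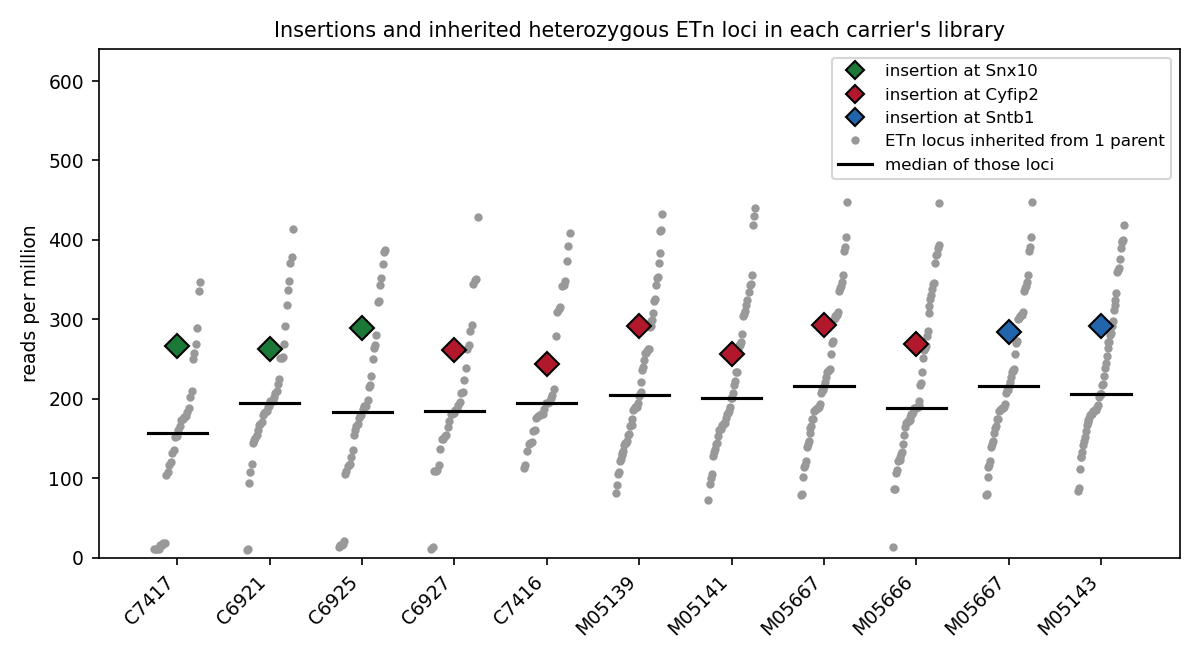
RPM of each insertion (diamonds) and of the ETn loci inherited from 1 parent and called in the same library (grey points, median as a black line), for the 11 pairs of insertion and carrier. The diamonds lie above every median, at 1.25 to 1.7 times its value, and within the grey points.

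In mating 1 fewer siblings carried the insertions than carried any of its inherited segregating loci. The sites were chosen as called in several siblings, so their numbers of carriers are a description with no test. Of 51 loci that came from 1 parent and segregated among the 16 offspring, 0 (0%) were carried by as few as 3 siblings, the number for Snx10, and 0 (0%) by as few as 2, the number for Cyfip2; the exact 95% Clopper-Pearson interval reaches up to 6.98%. The inherited loci had 5 to 15 carriers with a median of 9. With carriers called at 50 RPM they had 5 to 12, and the shares stayed at 0%. These loci lay on 11 chromosomes and those on 1 chromosome can be inherited together, so that they are not independent observations. When the 3 ear libraries were left out, 7.84% of the loci had 3 or fewer carriers and 0% had 2 or fewer.

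In mating 3 the numbers of carriers were within those of the inherited loci. Of 44 segregating loci, 10 (22.7%) were carried by 2 or fewer of the 8 offspring, as was the Sntb1 insertion. The Sntb1 site too was chosen by its carriers among these siblings. For Cyfip2, which C7416 herself carried, 14 of 26 segregating loci held by her and not by C7249 (53.8%) had 4 or fewer carriers, and their median was 4.

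**Figure D4:**
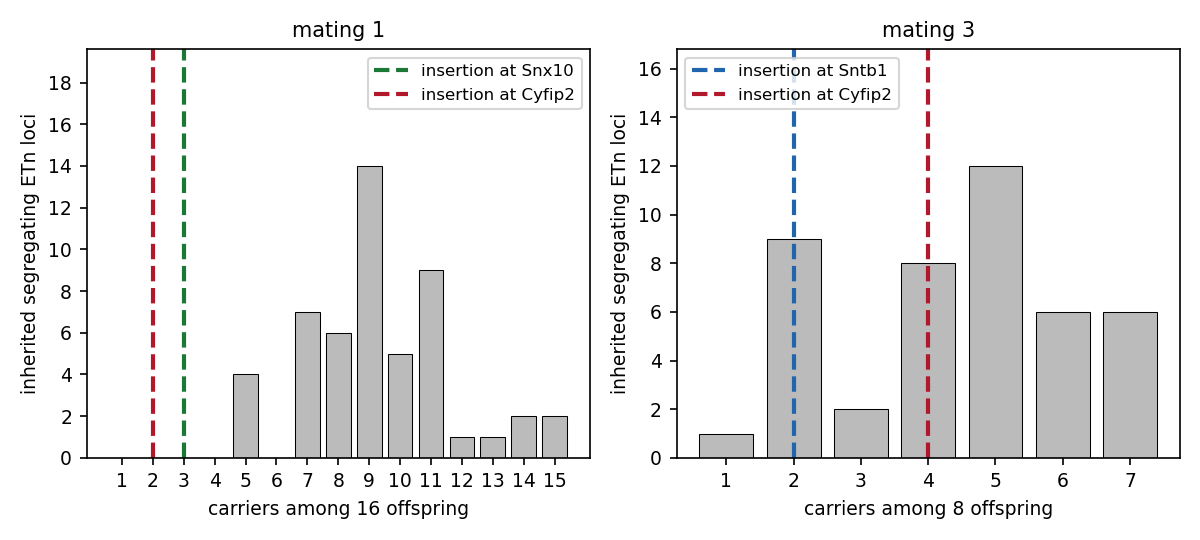
Number of inherited segregating ETn loci (bars) by how many siblings carried them in mating 1 and mating 3, with the insertions as dashed lines. In mating 1 both insertions lie left of all bars, which start at 5 carriers, and in mating 3 both fall among the bars.

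Carriers were not confined to the KO genotype. The Snx10 insertion was carried by 1 of 8 KO and 2 of 8 KO/WT animals and the Cyfip2 insertion by 0 of 8 KO and 2 of 8 KO/WT animals of mating 1. In mating 3 the Sntb1 insertion was carried by 1 of 4 KO and 1 of 4 WT animals and the Cyfip2 insertion by 1 of 4 KO and 3 of 4 WT animals. In Fisher's exact two-sided test the 4 comparisons gave p = 1, p = 0.467, p = 1 and p = 0.486, and 0.971 or 1 after Benjamini-Hochberg adjustment over the 4. The carriers among KO minus those among KO/WT offspring of mating 1 came to -12.5 percentage points at Snx10 and -25 at Cyfip2. Without the 3 ear libraries, all KO, they came to -5 and -25 (adjusted p = 1 and 0.974 in the same exact test). With so few carriers the smallest p that the first 3 of them allow is 0.2, 0.467 and 0.429, so none of these could have passed 0.05. The last could have reached 0.0286 before adjustment. After adjustment over the 4, none of the comparisons could have passed 0.05, whatever the distribution of the carriers. Both parents of each mating held at least 1 KO allele. For an insertion from a parent's germ line, these comparisons show only how carriers were spread over the genotypes of siblings. Whether the Chr4-cl deletion affects such insertions was not tested.

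In mating 3 an inherited ETn locus on chromosome 11 segregated opposite to the Cyfip2 insertion. This locus, at chr11:41672384-41675413 and 4.36 Mb away, was called in all 16 B6 libraries, held 330.6 RPM in BA27227 and 373.6 RPM in C7416, and had 0 reads in BA27232 and C7249. The 4 offspring with the insertion held 0 to 1.54 RPM at this locus, and the 4 without it held 362.2 to 387.4 RPM. Each of the 8 offspring thus received exactly 1 of the 2 from C7416. Of the carriers of mating 1, C6927 had the insertion without this locus (2.47 RPM) and C7416 had both. Of the 14 non-carriers of mating 1, 8 held the locus and 6 held neither.

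**Figure D5:**
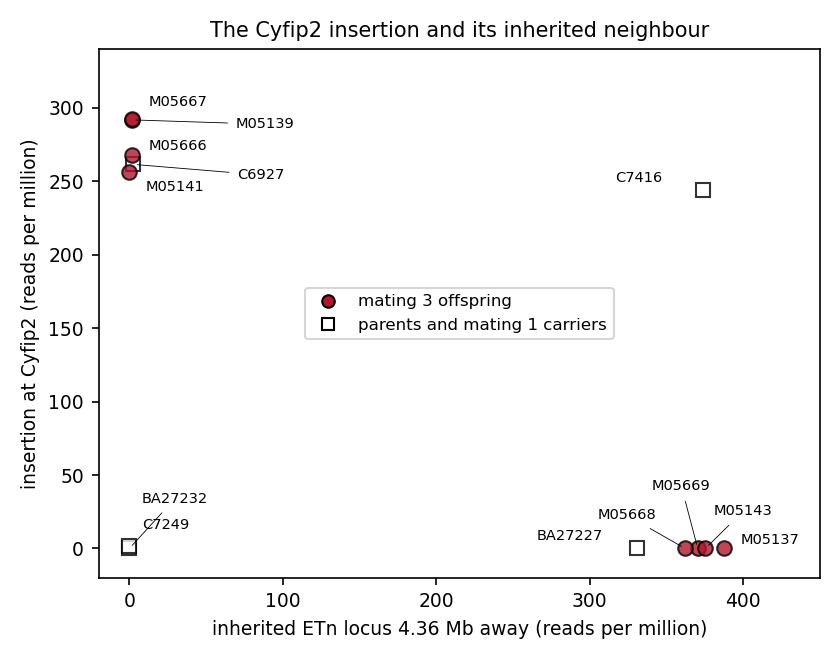
RPM at the Cyfip2 insertion against those at the inherited locus 4.36 Mb away, for the offspring of mating 3 (red circles) and for the parents and carriers of mating 1 and C7249 (white squares). The 8 offspring of mating 3 fall in 2 corners, with 1 of the loci each, while C7416 is high at both.

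For the Sntb1 insertion the nearest informative locus of C7416 was at chr15:57146815-57148918, 1.49 Mb away. Both carriers of the insertion and 4 of the 6 non-carriers held it, at 183.8 to 211.9 RPM. C7249 held no informative locus on chromosome 15 and C7416 another, at chr15:22560323-22562191 and 33.09 Mb away, found in 1 of 2 carriers and 4 of 6 non-carriers. No locus held by 1 parent of mating 1 segregated on chromosome 6, so the Snx10 insertion could not be placed beside an inherited one.

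Other ETn loci near the insertions were few. The Sntb1 gene already held a pair of loci, 47.7 kb and 54.8 kb from the insertion. They were called in all 76 main libraries at medians of 227.8 and 276.2 RPM. Both flanks of a reference element can be counted as separate loci, and whether this pair is such a case was not tested. No other locus was found in Cyfip2 or within 100 kb of it, and the nearest one called in every main library lay 412.4 kb away. At Snx10 a locus 4.4 kb from the insertion was called in 1 library, T00436, with 12 reads or 15.9 RPM. This KO animal was an offspring of the F1 family's parents T3913 and T3921.

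Outside the carriers the insertions left only traces. At Snx10, 5 of 84 non-carrier libraries (5.95%) held a read, 1 each in C6922, C6767, C6772 and C6927, siblings of the carriers, and in C5734 of mating 2. At Cyfip2, 2 of 80 (2.5%) held 1 read, the sibling C7417 and C7249. At Sntb1, 2 of 85 (2.35%) did, the siblings M05669 with 2 reads (3.45 RPM) and M05666 with 1. In all, 60 of the 76 main libraries had 0 reads at all 3 sites.

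Reads in non-carriers also occurred at inherited loci of the same families. At these loci a sibling under 50 RPM was taken as a non-carrier, whereas at the insertions all non-carriers lay under 10 RPM. Of the inherited values, 50 of 391 in mating 1 and 1 of 158 in mating 3 were at 10 RPM or more. At the loci not found in B6 libraries there were 0 such values. The shares and medians over all inherited loci include these higher values. The non-carrier siblings with a read were 4 of 13 (30.8%) for Snx10 and 1 of 14 (7.14%) for Cyfip2, against 64.5% of 391 values at 53 inherited loci of mating 1 and 30.7% of 101 values at the 16 of them not found in B6 libraries. For Sntb1 they were 2 of 6 (33.3%), against 41.1% of 158 values at 44 inherited loci of mating 3 and 10.8% of 37 values at the 11 of them not found in B6 libraries. Sntb1 thus lay below the first share and above the second. Relative to carriers, the mean of the non-carrier siblings was 0.142% at Snx10, 0.0327% at Cyfip2 and 0.284% at Sntb1. The same quantity, taken at each inherited locus, had a median of 0.862% over all such loci of mating 1 and 0.303% over those of mating 3, and of 0.282% and 0% over the loci not found in B6 libraries.

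The place of the trace libraries in the numbering of the libraries is given as a description. At Snx10, 5 of 14 non-carrier libraries whose number lay within 5 of a carrier's held a read, against 0 of 70 farther away. At Sntb1 it was 2 of 12 against 0 of 73, and at Cyfip2 1 of 23 against 1 of 57. The window of 5 was chosen after these values were seen and is the distance of the farthest trace library at Snx10, siblings mostly carry neighbouring numbers, and the part of the numbering in the traces was not tested.

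Further libraries of non-carriers held none of the insertions. Of the 11 further libraries, 10 had 0 reads at all 3 sites, with limits of 4.23 to 4.79 RPM, and the other was the adult tail of C7416. The 10 included 6 libraries of C6733, a KO sibling of the Snx10 and Cyfip2 carriers, from testis, brain, blood, kidney and adult tail, as well as repeat libraries of C7415 and C5734. The repeat of C5734 thus did not show again the single read at Snx10 of its first library.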

How the data were processed

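The members and the lists of loci were chosen with earlier results of these data known. The deposited files hold, per library, regions with raw counts of reads, as made by the authors: read pairs of 50 bp were mapped to mm9 with Bowtie, unique non-duplicate mates (SAMtools) of ETn reads were kept and merged within 1000 bp (bedtools), and tool versions were not stated in the sources used here. A later filter of the authors on annotated repeats had not been applied to these regions, none of which passed a chromosome end of NCBIM37 (mm9). RPM are counts per 1e6 reads of a library. Regions called at 10 RPM, the threshold of the study's methods, were joined across libraries within 1000 bp. An upper limit at 0 reads is 3 counts. Genes are those of GENCODE M1. Exact binomial and Fisher tests used scipy 1.17.1 with numpy 2.4.6 and python 3.11.15. Other thresholds, joins, denominators and sets of loci and leaving out each animal were tried as alternatives. The procedure was tested on simulated data. Named were the insertions, the genes around them, linked and nearby loci within 100 kb and the 3 loci most alike in carriers. Labels written BA2728 and BA2727 were read as BA27228 and BA27227. The tests counted carriers among the siblings of a single family each, so p-values measure how an insertion was distributed among those siblings. Carriers of the same insertion are not independent replicates.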

Additional observations from a re-analysis of the deposited data

Results flagged for a closer look

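In 9 groups of 4 to 10 libraries with a read at an insertion, 7 single libraries stood apart from the rest of their group by Dixon's criterion. The sites were chosen by these same values, and 1 library with reads among libraries with 0 always stands apart, so the number of such libraries is a description and no test. Single carriers were C7417 at Snx10 (266.6 RPM) among the tail libraries of KO offspring of mating 1, M05666 at Cyfip2 (268.3 RPM) and M05143 at Sntb1 (291.5 RPM) among KO offspring of mating 3, and M05667 at Sntb1 (283.6 RPM) among WT offspring of mating 3. M05669 was the single WT offspring of mating 3 without the Cyfip2 insertion (0 RPM). The remaining 2 were single reads, of C5734 at Snx10 in the KO offspring of mating 2 (1.43 RPM) and of C7417 at Cyfip2 in the KO offspring of mating 1 (1.23 RPM).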

How the results depend on the processing

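The carriers of all 3 insertions were the same number at 5, 20 and 50 RPM, at 10 or more reads, with regions within 1000 bp and after thinning to the shallowest library. Their mean RPM moved by less than the spread between carriers under every alternative run. The ratio to inherited heterozygous loci depended on which loci were taken. With the parent at 200 RPM it was 1.11 at Snx10, 1.01 at Cyfip2 and 1.1 at Sntb1. With the parent at 50 RPM it was 1.47 at Cyfip2 and 1.45 at Sntb1. With no read in the other parent it was 1.45 at Cyfip2, and with loci absent from B6 libraries 1.45 at Sntb1. With loci joined within 10000 bp, an alternative chosen after seeing the data since both flanks of a reference element can be counted as 2 loci, it was 1.09 at Cyfip2 and 1.16 at Sntb1. The share of inherited loci with as few carriers as Snx10 rose from 0% to 7.84% with tail libraries alone. Leaving out 1 animal at a time gave ratios of 1.47 to 1.64 at Snx10, 1.35 to 1.38 at Cyfip2 and 1.31 to 1.42 at Sntb1, and a transmitted share of 42.9% to 57.1%. The share of carriers among KO minus that among KO/WT or WT animals then ran from -25 to -1.79 percentage points for Snx10 and -28.6 to -14.3 for Cyfip2 in mating 1, and from -25 to 25 for Sntb1 and -75 to -41.7 for Cyfip2 in mating 3, and adjusted p for genotype was 0.571 or more under all alternatives. No paired analysis was possible because the animals of the compared genotypes share no replicate pairing in the labels. The number of carriers, 2 to 6 animals, limits every comparison.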

Other observations

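By the overlap of their carriers over the 76 main libraries (Jaccard index), no other ETn locus had the same carriers as an insertion. The locus most like Snx10 was at chr8:43159762-43159993, called in C7414 and the 3 Snx10 carriers (index 0.75), but at no more than 11.1 RPM and with reads in 53 main libraries. The next 2, at chr1:20801910-20802467 and chr1:38247840-38248268, were called in C7417 alone (18.5 and 28.4 RPM, index 0.333). For Cyfip2 the highest index was 0.188, at chr14:50552817-50555303, which was called in 32 libraries at up to 21.3 RPM. It was followed by chr4:145753883-145754619 (0.172) and by chr1:24323779-24324389, called in M05141 alone (0.167). For Sntb1 the first 3 had an index of 0.5 and were called in 1 carrier each, chr1:10211813-10212065 in M05143 (14.8 RPM) and chr1:90784226-90784558 and chr1:115604648-115605106 in M05667 (10.7 and 19.9 RPM).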
